A study of Mus musculus with 39 samples.

Results

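The regions described here are stretches of open chromatin that lie wholly within an intron and carried an ATAC-seq peak in every library of the series. The peaks of the 6 deposited lists were merged wherever they overlapped by at least 1 bp. A merged autosomal region was kept when it had a peak in all 6 lists, was under 2000 bp wide, lay more than 3 kb from every curated RefSeq start site, fell inside a gene body and touched no exon. This gave 26458 intronic regions, out of 74590 autosomal regions with a peak in all 6 lists and 165770 merged autosomal regions in all. The regions were thus selected on the presence of peaks, so presence is described and not tested, and a region that closed completely under one technique could not enter.

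The study compared FANS, in which fluorescent nuclei are sorted by flow cytometry, with INTACT, in which nuclei with a tagged membrane are captured on antibody-coated magnetic beads. All libraries came from the neocortex of adult mice of both sexes, which carried 1 transgenic Arc creERT2 allele (TG/WT) together with R26 CAG-Sun1-sfGFP-Myc in the M/WT or the M/M state and were given tamoxifen ahead of a social interaction test. The Cre recombinase is driven by the Arc promoter and is active only with tamoxifen, so the Sun1-sfGFP tag marks the nuclear membrane of any cell type that expressed Arc around that time. The ATAC-seq libraries, 3 of FANS and 3 of INTACT, were technical replicates of 1 biological source. Their SDs and p-values therefore measure technical spread, without the variation between animals.

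ATAC-seq uses a transposase that inserts adapters where DNA is not wrapped in nucleosomes. In neurons, many open sites away from promoters are enhancers or binding sites of other factors, and a large share of them lie in introns of long genes for synaptic adhesion, receptors and signalling. An open intronic site need not act on its host gene. The height of a peak is given below as the fold by which its summit exceeded the local background, and its rank as the percentile of that height among the 74590 regions within the same list.

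The sequences of 7 intronic regions are shown, 200 bases around the mean summit of the 6 lists, read from the plus strand of mm10. Capitals mark exact matches to any of 16 short transcription factor motifs on either strand. The first 3 are the highest regions by mean percentile, and they contrast with one another in that the first holds no match and the third holds 3 matches to the AP-1 motif TGANTCA.
Zfp804b, chr5:7276854-7277053: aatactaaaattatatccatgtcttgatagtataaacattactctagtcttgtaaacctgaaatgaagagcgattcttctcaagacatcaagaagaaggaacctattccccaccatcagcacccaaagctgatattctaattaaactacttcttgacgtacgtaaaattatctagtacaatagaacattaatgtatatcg
Macrod2, chr2:141587351-141587550: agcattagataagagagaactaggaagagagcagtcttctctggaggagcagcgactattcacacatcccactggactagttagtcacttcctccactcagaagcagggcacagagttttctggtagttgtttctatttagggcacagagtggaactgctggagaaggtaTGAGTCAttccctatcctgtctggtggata
Cfap69, chr5:5648937-5649136: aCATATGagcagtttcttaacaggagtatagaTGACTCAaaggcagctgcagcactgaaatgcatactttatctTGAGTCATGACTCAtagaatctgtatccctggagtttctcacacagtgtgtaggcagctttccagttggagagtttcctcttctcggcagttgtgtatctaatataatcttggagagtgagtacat
The next 2 are the regions most raised in INTACT, shown for their low GC content.
Gm20754, chr3:73174208-73174407: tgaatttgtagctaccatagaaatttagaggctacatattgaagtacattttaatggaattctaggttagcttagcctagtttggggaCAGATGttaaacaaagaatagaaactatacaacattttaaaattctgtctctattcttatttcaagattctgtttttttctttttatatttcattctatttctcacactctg
Folh1, chr7:86764728-86764927: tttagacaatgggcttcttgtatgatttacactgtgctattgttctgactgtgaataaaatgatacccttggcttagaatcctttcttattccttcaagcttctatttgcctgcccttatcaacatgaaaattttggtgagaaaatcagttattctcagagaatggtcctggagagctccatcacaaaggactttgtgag
The last 2 are the regions most lowered in INTACT. The stretch in Cit, which encodes citron kinase, holds the full cyclic AMP response element TGACGTCA beside 2 kinds of E-box.
Zfp385c, chr11:100640242-100640441: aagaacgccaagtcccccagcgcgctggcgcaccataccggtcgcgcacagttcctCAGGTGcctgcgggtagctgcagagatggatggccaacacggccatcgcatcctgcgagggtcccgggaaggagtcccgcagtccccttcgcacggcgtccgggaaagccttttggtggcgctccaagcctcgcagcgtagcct
Cit, chr5:115871273-115871472: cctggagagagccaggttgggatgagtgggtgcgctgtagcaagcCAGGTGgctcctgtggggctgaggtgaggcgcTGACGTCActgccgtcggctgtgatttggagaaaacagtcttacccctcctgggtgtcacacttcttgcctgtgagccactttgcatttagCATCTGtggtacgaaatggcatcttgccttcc

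Intronic regions made up 35.5% of the regions with a peak in all 6 lists, next to 27707 intergenic, 14751 promoter, 4952 exonic and 722 broad regions. They had a median width of 688 bp, with 80% of them between 456 and 1072 bp. The summits of the 6 lists fell within 100 bp of each other in 70.6% of the intronic regions, with a median spread of 72 bp. Their median distance from the nearest start site was 43.3 kb, with 3185 regions under 10 kb and 6554 over 100 kb away. First introns held 26.8% of them, next to the 27.2% of intron sequence that first introns made up in the longest curated transcript of each gene.

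Intronic regions with peaks in 5 lists numbered 6581 and had a median height of 4.96, against 7.96 for those with all 6 and 3.25 for the 13890 with a peak in 1 list. INTACT replicate 2, the list with the fewest peaks (99514, against 113224 to 130088 in the others), was the missing list in 3473 of the 6581. The widest region kept was one of 1999 bp in Grm7, which encodes a metabotropic glutamate receptor, with heights of 8.83 to 10.0, and the narrowest one left out was 2000 bp wide in Nadk2, with heights of 5.64 to 8.55. The region kept nearest to a start site lay 3003 bp away in Fgf14 (heights of 7.22 to 8.69), and the farthest one left out lay 2998 bp away in Zfp563 (heights of 7.57 to 10.2).

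Intronic regions were lower than promoter regions in every list. Their median height was 8.15, 8.44 and 8.61 in FANS replicates 1 to 3 and 7.41, 6.72 and 8.13 in INTACT replicates 1 to 3. The groups do not overlap, but the depth of the libraries, on which fold enrichment can depend, is unknown. On the percentile scale FANS lists had an intronic median of 43.0 ± 0.218 and INTACT lists one of 41.4 ± 0.0697 (SD, n = 3 each), which was 1.60 percentile points lower. All 3 INTACT lists lay below all 3 FANS lists (exact two-sided permutation test, p = 0.1, the smallest that 3 against 3 lists allow).

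The other classes of region moved by different amounts, and intergenic regions moved the other way. Promoter regions had median percentiles of 71.9 ± 0.756 in FANS and 66.4 ± 0.903 in INTACT, and intergenic regions 48.7 ± 0.151 and 54.2 ± 0.399 (SD, n = 3 each). Exonic regions had 43.9 to 44.3 in the FANS lists and 37.7 to 38.2 in the INTACT lists, and broad regions 42.3 to 46.9 and 39.6 to 42.1. Intronic, promoter, exonic and broad regions were thus all lower in INTACT, the intronic ones by the least. The median height of intronic less promoter regions, in log2 units within a list, was -0.63 ± 0.026 in FANS and -0.50 ± 0.019 in INTACT (SD, n = 3 each). The same value for intronic less intergenic regions was -0.12 ± 0.0048 and -0.26 ± 0.0073. Intronic regions thus gained on promoters and lost against intergenic regions in INTACT, each time without overlap between the lists of the 2 techniques (exact two-sided permutation test, p = 0.1 for both, the smallest possible). The highest 10% of heights in a list held 4.83% ± 0.155 of the intronic regions in FANS and 5.06% ± 0.202 in INTACT (SD, n = 3 each), a difference within the spread between lists (exact permutation test, p = 0.3).

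**Figure D1:**
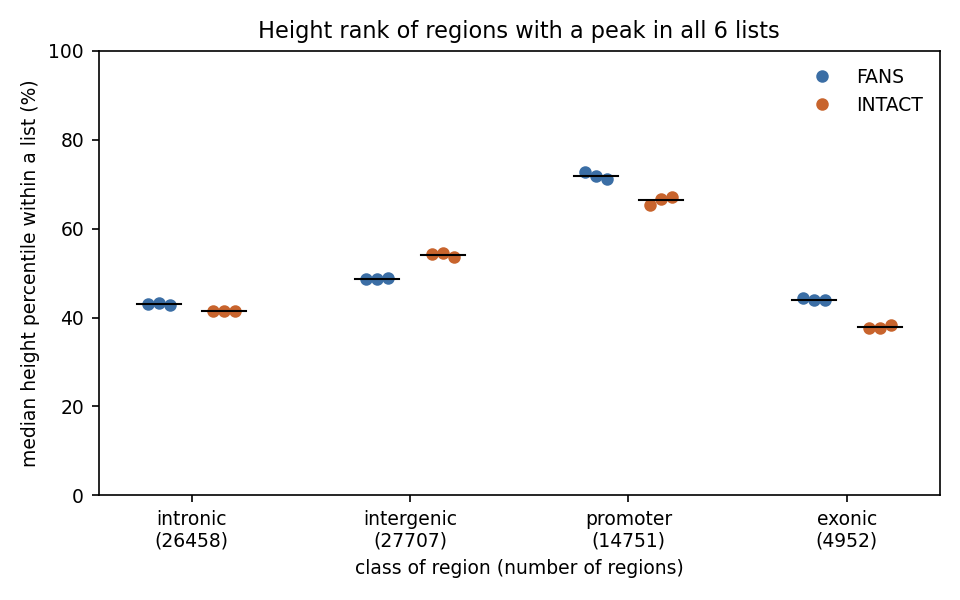
Median height percentile (vertical axis, %) of the intronic, intergenic, promoter and exonic regions with a peak in all 6 lists (horizontal axis), with 1 point per list and a bar at the mean of 3 lists. The intronic points sit between 41.4 and 43.3, with INTACT below FANS, the intergenic points are higher in INTACT, and the promoter and exonic points are lower.

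Single intronic regions were then compared between techniques with limma on quantile-normalized log2 heights. All 26458 could be fitted. At an adjusted p under 0.05, 2044 of them (7.73%) were higher in INTACT and 2436 (9.21%) lower, while over all 74590 regions 10.9% were called higher and 10.1% lower. Both shares of intronic regions were below that background, the lower share only slightly, and the background differed by class. Intergenic regions had 19.4% higher and 8.98% lower, and promoter regions 3.17% and 13.0%. Exonic regions had 5.37% and 13.1%, and broad regions 0.416% and 3.19%. The median difference, INTACT minus FANS, was -0.02 on the log2 scale over the intronic regions and -0.01 over all regions. A change of at least 2-fold was fitted in 275 of the called intronic regions. With no normalization of the lists, 976 were higher and 4051 lower, and the median over all regions moved to -0.16. Without FANS replicate 1, 2 or 3 the lower calls were 1615, 1498 and 1538. Log2 heights of intronic regions correlated at r = 0.93 to 0.94 between FANS lists, 0.89 to 0.91 between INTACT lists and 0.80 to 0.85 across techniques (26458 regions, which share the lists' depth and base composition).

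GC content followed the difference between techniques among intronic regions. Their median GC content, in 300 bp around the summit, was 46.7% (10th to 90th percentile 39.0 to 54.3%), against 45.7% for intergenic and 62.7% for promoter regions. Across intronic regions the correlation of GC content with the log2 difference was r = -0.34, and it was -0.46 for intergenic and -0.21 for promoter regions. Of the 5605 intronic regions with up to 41.7% GC, 17.7% were higher and 3.41% lower in INTACT, with a median difference of 0.13. Of the 5223 with over 51.7% GC, 2.03% were higher and 15.8% lower, with a median of -0.13. Within the FANS lists the median percentile was 33.6 to 34.6 in the GC-poor regions and 48.2 to 49.1 in the GC-rich ones, and in the INTACT lists it was 40.5 to 43.9 and 38.3 to 40.5. After a correction for GC content in each list, which was chosen after this relation had been seen, 1696 were higher and 2592 lower, and 1100 and 1607 of these had been called the same way before. Values after this correction are given below for some of the regions, genes and lists.

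**Figure D2:**
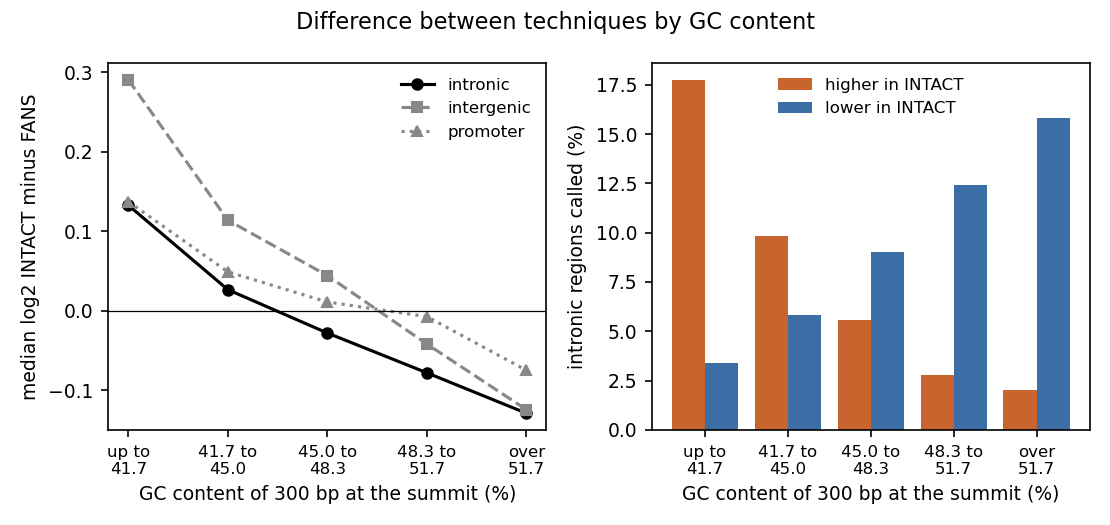
Left, median log2 difference INTACT minus FANS (vertical axis) of intronic, intergenic and promoter regions in 5 bins of GC content (horizontal axis, %). Right, share of intronic regions called higher or lower in INTACT (vertical axis, %) in the same bins, where the higher calls fall from 17.7% to 2.03% and the lower calls rise from 3.41% to 15.8%.

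With distance from the start site the GC content fell and the difference between techniques rose. Regions 3 to 10 kb from a start site had a median GC content of 48.7% and a median difference of -0.05, with 5.55% higher and 11.5% lower in INTACT. Regions over 100 kb away had 44.7% GC and a median difference of 0.02, with 11.2% higher and 7.16% lower. By chromosome, the called shares ran from 2.74% higher and 22.0% lower on chromosome 7 (986 regions, median GC 49%) to 10.7% higher and 2.33% lower on chromosome 3 (1630 regions, median GC 45.7%).

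The 6 intronic regions most raised in INTACT ranked at percentiles of 28.8 to 90.9 in the INTACT lists and 0.363 to 18.5 in the FANS lists. The largest rise was in intron 1 of Gm20754, a predicted gene, at chr3:73173618-73174768, with heights of 2.71, 3.18 and 3.80 in FANS and 8.82, 8.34 and 6.97 in INTACT. The log2 difference was 1.43 (SE 0.18, limma adjusted p = 1.95e-04), and 27.7% of the bases at its summit are G or C. The region in intron 4 of Folh1 (chr7:86764648-86765047), whose product cleaves glutamate from the peptide N-acetylaspartylglutamate, had heights of 4.74, 5.61 and 5.61 in FANS and 11.5, 14.5 and 12.9 in INTACT. Its log2 difference was 1.42 (SE 0.15, limma adjusted p = 7.0e-05). Spag16 (an axoneme protein, log2 difference 1.40), Trdn (triadin, of the calcium release complex of muscle, 1.38), Mdfic (1.36) and Fam172a (1.35) followed. The lists of the techniques did not overlap in these 6. The regions were picked as the largest called rises, so this separation comes with the choice. Their GC content was 27.7 to 40.0%. After GC correction the log2 differences were 0.90 in Gm20754, 0.85 in Trdn and 0.82 in Fam172a, each still called, and 1.00 to 1.14 in the other 3.

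The 6 most lowered regions showed the reverse, with heights of 11.3 to 19.1 in FANS and 3.22 to 6.55 in INTACT. The region in intron 2 of Zfp385c, a zinc finger gene, at chr11:100640011-100640722, had heights of 13.1, 15.2 and 16.6 in FANS and 4.07, 3.22 and 6.55 in INTACT. Its log2 difference was -1.64 (SE 0.19, limma adjusted p = 1.24e-04). The region in intron 4 of Cit (chr5:115871059-115871724) had heights of 13.7, 14.0 and 15.7 in FANS and 4.58, 3.49 and 4.86 in INTACT, a log2 difference of -1.63 (SE 0.14, limma adjusted p = 3.4e-05). Septin9 (a filament-forming GTPase, -1.62), Trpc7 (a cation channel, -1.53), Ltbp2 (a matrix protein, -1.53) and Snx8 (a sorting nexin of endosomes, -1.49) came next. The groups overlapped in none of these, which again comes with picking the largest called differences. The GC content at the summit was 48.0 to 65.7%. After GC correction the 6 log2 differences were -1.50 to -1.31, all still called.

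The 5 highest and the 5 lowest intronic regions were picked by their mean percentile over the lists of both techniques, so they had to rank alike in all 6, and their values are a description. A region in intron 1 of Zfp804b, a zinc finger gene, at chr5:7276784-7277283, had heights of 40.8, 39.9 and 39.6 in FANS and 36.7, 34.2 and 37.6 in INTACT and was at a mean percentile of 99.998. Of the 276 positions in its 300-bp window, 31 start a run of 25 bases that also occurs in the mitochondrial genome of mm10, a check added after its values were seen. Only 1 other intronic region, in Nedd4l, shared any such run, with 29 positions and heights of 12.2 to 18.5. The part of mitochondrial reads in these heights was not tested.

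The next region, in intron 6 of Macrod2, which encodes a mono-ADP-ribosyl hydrolase (chr2:141587093-141587795), had heights of 27.3, 28.0 and 28.8 in FANS and 25.0, 21.3 and 28.3 in INTACT. Cfap69 (a cilium and flagellum protein), Trpm3 (a cation channel) and Nckap5 held the other 3 of the 5 highest, with heights of 20.3 to 27.3. The 5 lowest intronic regions, in Rsph14, Elavl2, Ttc7 and Mroh4 (2 regions), had heights of 1.71 to 2.68.

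**Figure D3:**
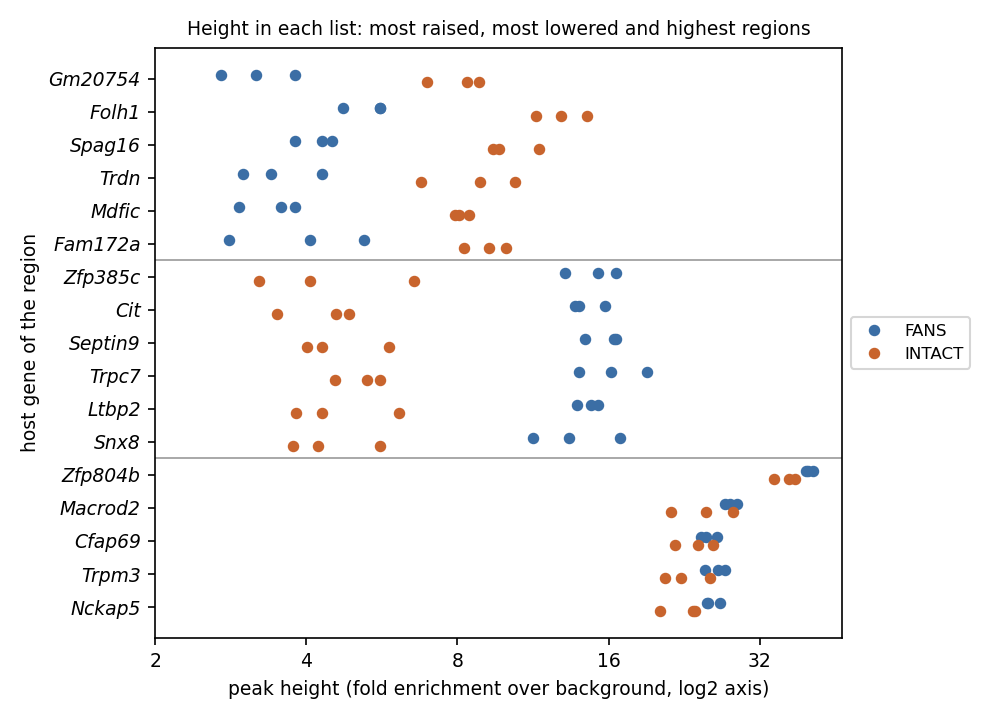
Peak height (horizontal axis, fold enrichment, log2 scale) of 17 intronic regions, 1 row per host gene and 1 point per list. The upper 6 rows are the most raised and the middle 6 the most lowered regions in INTACT, picked for these differences. The lower 5 are the highest regions, where the techniques lie within 1 log2 unit.

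In all, 6362 of 24963 autosomal genes held at least 1 intronic region, 2568 held exactly 1 and 677 held 10 or more. Magi2, a scaffold of the postsynaptic density (chromosome 5, 19227046 to 20704792), held 70. Lsamp, a membrane-anchored adhesion protein (chromosome 16, 39984364 to 42181679), held 69, and Tenm2, a teneurin that binds across synapses, 67. Nrxn3, a presynaptic neurexin, held 63, Ptprn2, a protein of dense-core vesicles, 60, and Astn2, an astrotactin of neuronal migration, 60. The receptor phosphatase Ptprd held 56, the alpha-catenin Ctnna2 and the cAMP phosphodiesterase Pde4d 54 each, and the postsynaptic scaffold Anks1b 53. Dab1, an adaptor of reelin signalling, and Macrod2 held 51 each, Tenm4 50, and the glypican Gpc6 and the large membrane protein Csmd1 48 each. Together these 15 genes held 854 intronic regions.

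Relative to length the order changed. Per 100 kb of gene body the same 15 genes held 2.47 (Ptprd) to 7.57 (Ptprn2) regions, around the median of 5.12 over the 677 genes with at least 10. None of the 15 was among the 15 densest of these 677 genes. Genes with fewer than 10 regions were not ranked by density. Among the 677, Mbp, which encodes myelin basic protein, was the densest with 19 regions in 111 kb (17.2 per 100 kb). It was followed by Mgll, which encodes monoacylglycerol lipase (14.4), Tspan5, a tetraspanin (14.2), and Klhl29 (13.1). With only peaks at a -log10 q-value of at least 5, 14 of the same 15 genes held most regions.

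The calls in these genes are read against the 10.9% higher and 10.1% lower over all regions. Csmd1 had 15 regions lower and 1 higher of 48, with median percentiles of 61.8, 60.1 and 61.7 in FANS and 47.0, 43.8 and 40.5 in INTACT. The median GC content of the 48 was 44.7%. Gpc6 had 10 higher and 0 lower of 48, with 28.4, 31.4 and 30.3 in FANS and 37.7, 46.1 and 41.6 in INTACT. Ctnna2 had 8 higher and 0 lower of 54, and Ptprd 8 lower and 1 higher of 56. Magi2 had 1 of each, so 68 of its 70 regions were not called. These counts depend on single lists. Without FANS replicate 1 Csmd1 had 8 lower calls, and without FANS replicate 2 Ctnna2 had 4 higher and Ptprd 2 lower. After GC correction the lower calls were 20 in Csmd1 and 17 in Ptprd, and Gpc6 and Ctnna2 had 6 higher each. With no normalization Csmd1 had 24 lower and Ptprd 12, while Gpc6 had 3 higher and Ctnna2 4.

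**Figure D4:**
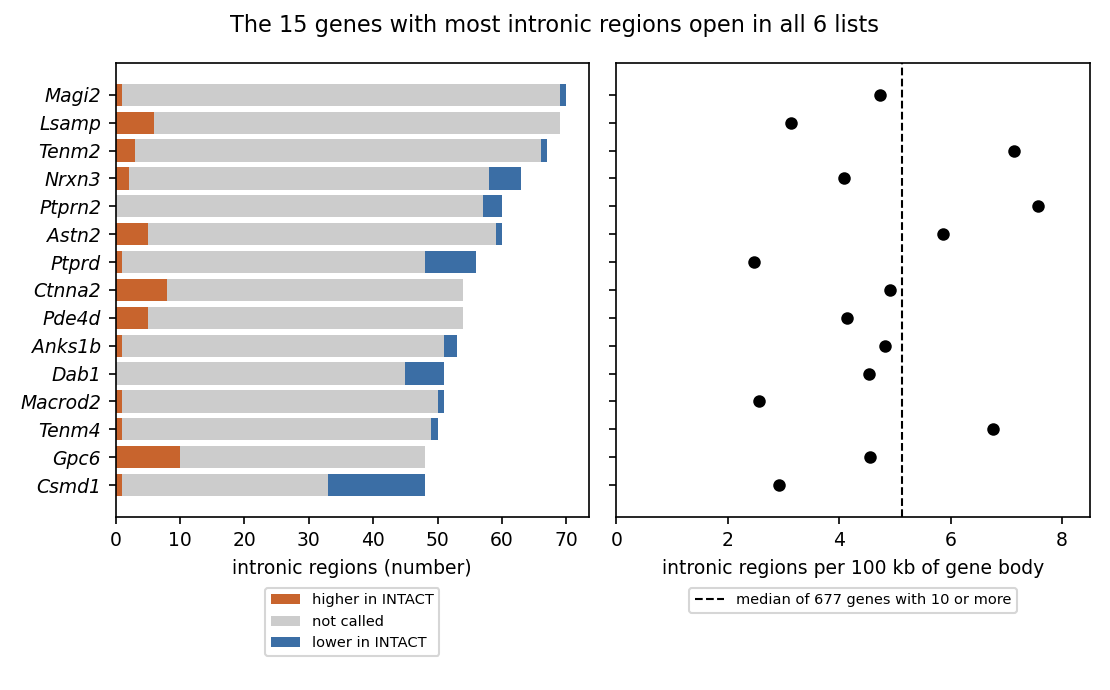
Left, number of intronic regions (horizontal axis) in the 15 genes with most, split by call. Right, the same regions per 100 kb of gene body, with the median of 5.12 over the 677 genes with at least 10 regions as a dashed line. Csmd1 has the most lower calls (15) and Gpc6 the most higher calls (10).

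Across the 677 genes with at least 10 intronic regions, 65 had calls in both directions, 231 only higher, 196 only lower and 185 none. In 14 genes at least 50% of the regions were higher in INTACT, and in 11 at least 50% were lower. These genes were picked after their values were seen and carry no test. Their counts depend on single lists and on GC correction. Prickle2 had 12 of 23 regions lower, and 4 without FANS replicate 3. Prex2 had 7 of 12 higher, and 2 after GC correction. The genes described next moved less. Dpyd, of pyrimidine breakdown, had 11 of 12 regions higher, with a median log2 difference of 0.70. Without FANS replicate 2 this was 8 of 12, and after GC correction 10. Galnt17, of protein glycosylation, had 7 of 10 lower with a median of -0.79, and after GC correction also 7. Tmem132d had 9 of 14 lower, and 9 in every run with 1 list left out and after GC correction.

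The gene lists differed in how densely intronic regions lay in them. Over all autosomal genes there were 2.64 regions per 100 kb of gene body, 3.24 over genes of 100 to 250 kb, 3.60 over those of 250 to 500 kb and 2.99 over longer ones. Oligodendrocyte lineage markers held most, 5.65 per 100 kb (37 regions in 7 of 19 genes, of which Mbp alone held 19), and astrocyte markers 4.30. Excitatory neuron markers held 3.44, microglia markers 2.82, vascular markers 1.35 and inhibitory neuron markers 1.24 (41 regions in 7 of 20 genes), the fewest of all lists. GABA receptor subunit genes held 4.28 per 100 kb (109 regions in 11 of 13 genes, with Gabbr2 at 29 and Gabrb1 at 23). Potassium channel genes and partners held 4.19 (391 regions in 25 of 29 genes, with Kcnma1 at 44 and Dpp6 at 36), and calcium and sodium channel genes 4.01 (279 regions in 23 of 23 genes, with Itpr1 at 35 and Ryr2 at 28). Signalling genes held 3.77 (led by Pde4d and Nrg3) and transcription factors and chromatin regulators 3.66 (led by Myt1l and Tcf4). Synaptic adhesion genes held 3.38 (led by Magi2 and Lsamp) and glutamate receptor genes 3.27 (led by Grm7 with 37 and Grid1 with 36). Glutamate receptor genes, with a median length of 394 kb, lay below the value for all genes of 250 to 500 kb. Synaptic adhesion genes, with a median length of 773 kb, lay above the 2.99 of genes over 500 kb. Of 20 immediate early genes, only Homer1 held any (6 regions), and Arc held 0. Arc is 3.49 kb long and the median gene of this list 4.79 kb. The rule, with its limits on start sites and exons, leaves little room in genes this short.

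Inhibitory neuron markers had the largest share of called regions of the 14 lists. Of their 41 intronic regions, 22 (53.7%) were higher in INTACT and 1 lower, with a median log2 difference of 0.36. Over all intronic regions the shares were 7.73% and 9.21%. The median height percentile of the 41 was 40.5, 36.8 and 48.9 in FANS and 64.7, 59.0 and 58.7 in INTACT, without overlap. The 22 lay in 4 genes. Reln, which encodes the extracellular guidance protein reelin, had 7 of 14 higher, and Adarb2, of a subset of interneurons, 6 of 12. Erbb4, the neuregulin receptor found mainly on interneurons, had 7 of 7 and Nxph1, a ligand of neurexins, 2 of 3. The 1 lower region was in Gad1, the GABA-synthesizing enzyme, with a log2 difference of -0.54, and regions of Sox6, a transcription factor, were not called. Without INTACT replicate 1 the higher calls of the list were 14 and those of Erbb4 and Reln 4 and 3, and with no normalization the list had 13. Adarb2 had 4 without FANS replicate 1, and with no normalization Reln had 2, Adarb2 4 and Erbb4 5. After GC correction the list had 18 higher and 1 lower, with 7 in Reln, 5 in Erbb4 and 4 in Adarb2.

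Excitatory neuron markers had 4 of 88 regions higher and 4 lower, with a median log2 difference of -0.03. After GC correction they had 3 higher and 4 lower, with no normalization 3 and 7, and with the -log10 q-value as the height 12 and 26. Rasgrf2, an exchange factor of Ras, had 13 regions with 1 lower. Of the 50 regions of astrocyte markers 9 were higher and 0 lower, 5 of them in Gli3, a transcription factor of the hedgehog pathway, 3 in Slc4a4, a bicarbonate transporter, and 1 in the glutamate transporter gene Slc1a3. With no normalization this list had 5 higher and 1 lower, and after GC correction 7 and 0. Oligodendrocyte lineage markers had 0 higher and 2 lower of 37, microglia markers 1 and 0 of 11 and vascular markers 1 and 2 of 10. Over all regions the shares were 10.9% higher and 10.1% lower, and nothing is read from lists this small.

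Nuclear RNA levels of these markers come from 31 other libraries of the series in 3 groups, each scaled on its own. The labels call the nuclei activated neuronal nuclei. Over all 31 libraries the median level per kb of exon was 149.7 to 224 normalized counts for excitatory markers, 3.60 to 11.9 for inhibitory, 3.95 to 10.7 for astrocyte, 10.5 to 79.8 for oligodendrocyte lineage and 1.08 to 5.10 for microglia markers. The summed level per kb of exon of the 20 inhibitory markers in group 1 was 243 to 324 in FANS libraries and 365 to 450.2 in INTACT libraries. It was 348 to 552 and 390 to 507 in group 2, and 143 to 225 and 138 to 199 in group 3. For the 20 excitatory markers it was 6209 to 6343 and 6200 to 6381 in group 1. For the 18 astrocyte markers in group 1 it was 780 to 869 in FANS and 1044 to 1088 in INTACT. Higher levels without overlap in INTACT were thus seen in group 1 for the inhibitory and astrocyte markers, and the ranges overlapped in groups 2 and 3. The part of a different share of cell types in the ATAC-seq differences was not tested, and more nuclei of a type cannot be told apart here from more open chromatin per nucleus.

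**Figure D5:**
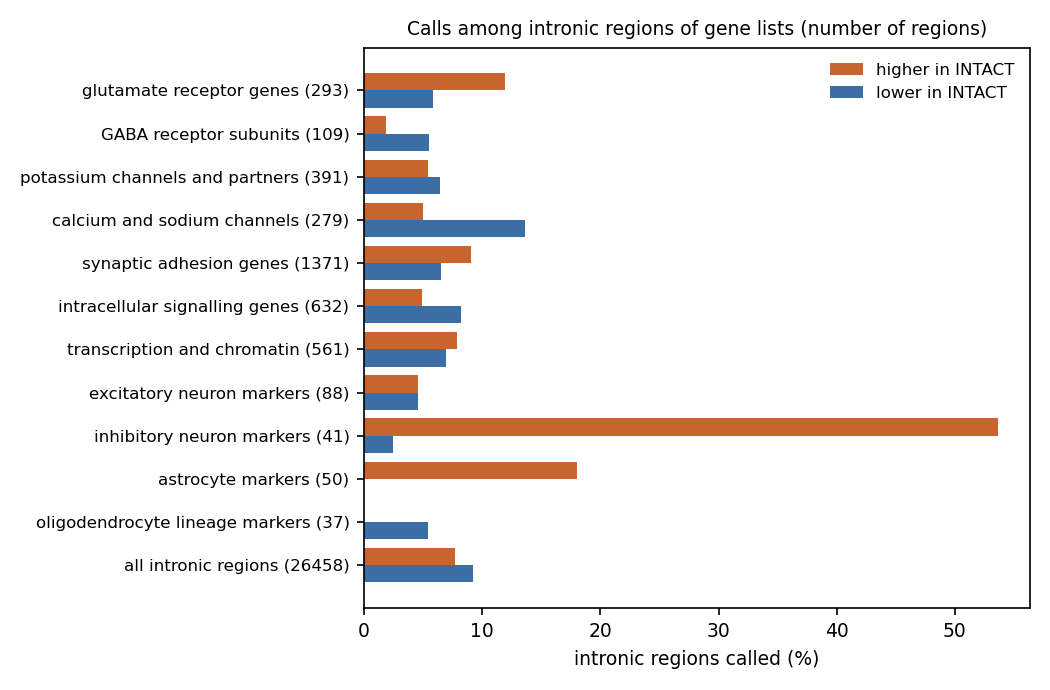
Share of intronic regions called higher or lower in INTACT (horizontal axis, %) for each gene list with at least 30 intronic regions, with the number of regions after each name and all 26458 in the bottom row. Inhibitory neuron markers stand out with 53.7% higher and 2.44% lower.

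Ion channel and receptor lists split by gene. Glutamate receptor genes had 35 of 293 regions higher and 17 lower (11.9% and 5.80%), and their higher share was close to the 10.9% over all regions. The kainate receptor genes Grik1 and Grik2 had 4 of 6 and 4 of 10 regions higher. The kainate receptor gene Grik4 had 7 of 15 lower and the NMDA receptor gene Grin2a 6 of 21. Grin2b, with 29 regions, had none called. Single lists moved these counts. Without FANS replicate 1, 2 or 3 the list had 8, 7 and 9 lower regions. Grin2a had 2 lower without FANS replicate 1 and Grik4 4 without FANS replicate 2, while Grik1 had 1 higher without INTACT replicate 1 and Grik2 2 without INTACT replicate 3. After GC correction the list had 21 higher and 33 lower, so the balance of its calls turned. Grik1 and Grik2 then had 1 higher region each, Grik4 had 3 lower and Grin2a 5. With no normalization the balance turned as well, with 18 higher and 35 lower in the list. Calcium and sodium channel genes had 38 of 279 lower and 14 higher (13.6% and 5.02%), next to 10.1% and 10.9% over all regions. Without FANS replicate 1, 2 or 3 the lower calls in this list fell to 23, 22 and 24, and the higher calls were 7 without FANS replicate 2 and 8 without FANS replicate 3 or INTACT replicate 1. The list had 42 lower and 10 higher after GC correction, and 61 and 6 with no normalization. With the -log10 q-value as the height, glutamate receptor genes had 100 higher and 60 lower, calcium and sodium channel genes 44 and 104, astrocyte markers 23 and 1 and inhibitory neuron markers 32 and 1.

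The shares of intronic and promoter regions with a motif differed to unequal extents. The letters searched, on both strands of the 300 bp around the summit, were TGANTCA (AP-1), TGACGTCA (cyclic AMP response element), CAGATG (an E-box of Neurod factors) and its variant CATATG (also of Neurod factors), CAGGTG (an E-box of Tcf factors), TTGGCA (NFI), GCGTGGGCG (Egr), GTTGCCATG (RFX), TATTTATAG (MEF2), AGGGGGCGC (CTCF), AGGTCA (ROR), GGGCGG (SP/KLF), GCGCATGCG (NRF1), AAGATGGCG (YY1), CCAAT (NFY) and CCGGAA (ETS). AP-1 letters were in 22.3% of intronic, 22.1% of intergenic and 7.06% of promoter regions, and CAGATG in 36.6%, 36.4% and 15.0%. GGGCGG was in 6.56% of intronic and 57.1% of promoter regions, and CCGGAA in 3.27% and 23.4%. Closer shares were found for CAGGTG, in 15.8% of intronic and 17.5% of promoter regions, and AGGTCA, in 8.64% and 8.22%. CCAAT was in 30.3% and 35.4%, and within 100 bp around the summit in 10.6% and 18.8%.

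Among intronic regions, some shares differed with the direction of the call. GGGCGG was in 3.23% of the regions higher in INTACT and 8.74% of those lower, and CAGGTG in 11.4% and 19.2%. CATATG was in 14.4% of the higher and 10.7% of the lower regions, while CAGATG, the other E-box of Neurod factors, was in 34.4% and 40.9%. AP-1 letters were in 23.5% and 23.1%. By height, AP-1 letters were in 29.3% of the highest 10% of intronic regions by mean percentile and 18.2% of the lowest 10%. The regions lower in INTACT had a median GC content of 49.7% and those higher of 42%, and the part of base composition in these shares was not tested.

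Genes with more intronic regions had higher nuclear RNA levels, which are given as a description without a test. In group 1 FANS libraries the median level per kb of exon was 6.63 to 6.94 normalized counts for genes without an intronic region and 118 to 125 for genes with 10 or more, and in INTACT libraries 6.66 to 6.93 and 102 to 108. The median gene length was 8.2 kb in the set without an intronic region and 322 kb in the set with 10 or more. Among genes of at least 100 kb, those with 10 or more intronic regions had 118 to 125 in group 1 FANS. Those with 0 to 4 had 30.3 to 32.5. Their median lengths were 323 and 134 kb, so length still differed between these sets. Over these 2269 long genes, regions per 100 kb and RNA level correlated with Spearman's rho of 0.31 to 0.34 in every library of all 3 groups, across genes, which are not independent replicates. Magi2 had 2352 to 2755 normalized counts in group 1 FANS and 1555 to 1655 in INTACT, and Ptprn2 1401 to 1533 and 1713 to 1765. In group 2 Magi2 had 1926 to 2153 and 1706 to 1822, while the ranges of Ptprn2 overlapped (1434 to 1813 and 1506 to 1936). In group 3 the ranges of both overlapped, with medians of 1903 in FANS and 2043 in INTACT for Magi2 and 1346 and 1209 for Ptprn2, so the order of group 1 did not hold across groups.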

How the data were processed

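ATAC-seq of neocortical sfGFP+ nuclei was taken from 6 deposited MACS2 peak lists (3 FANS, 3 INTACT, aligned to mm10 by the authors with Bowtie2, duplicates removed). The authors' caller wrote for each peak a fold enrichment (a ratio), -log10 p-values and -log10 q-values, and a deposited score of 10 times the latter. Peaks were called per library, and read depth is unknown, so no counting interval was computed. Groups and replicate numbers come from the labels.

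The highest peak of a list stood for a region. Log2 heights were quantile normalized over the 74590 regions with a peak in all 6 lists and compared with limma 3.58.1 (trend) in R 4.3.3, Benjamini-Hochberg adjusted p under 0.05 over all of them. List medians were compared by exact permutation tests (scipy). The fit was tested on simulated data. Start sites (31601) and introns came from 45756 curated RefSeq transcripts. The members and gene lists were chosen with earlier results of these data known.

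RNA levels came from 3 tables of 31 libraries. The authors aligned with STAR, counted with HTSeq and divided by DESeq size factors, giving a deposited signal per gene that is scaled within each table. These were divided by exon length, described within a table and not tested. Of 24963 genes 23125 were found there, 972 by an older symbol.

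Text names the 15 genes with most regions, the 5 highest and 5 lowest regions by mean percentile, the 6 largest called changes each way, the 2 genes with most regions per list and the regions at each threshold. The other genes named were chosen after their values were seen. The fold changes of the study's own differential test were not used. Replicate numbers did not pair the lists: deviations of same-numbered lists correlated at 0.0012 to 0.011. Values of some single genes are not reported here.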

Additional observations from a re-analysis of the deposited data

Results flagged for a closer look

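Among 72 sets of 4 to 7 RNA libraries looked at, 4 values stood apart from the rest of their group by Dixon's ratio, where chance alone gives about 1 in 20. In group 1, 1 FANS library that carries no number had a median of 125 normalized counts per kb over long genes with 10 or more intronic regions, and INTACT replicate 4 had 6.66 over genes with none. Also in group 1, INTACT replicate 1 had 1765 normalized counts of Ptprn2. In group 2, FANS replicate 5 had a median of 38.6 per kb over genes with 1 to 4 intronic regions. The groups of 3 ATAC-seq lists were too small for this ratio.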

How the results depend on the processing

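The number of intronic regions was 23263 to 27431 under the 5 other rules for peaks, merging, distance and width, and 26835 to 30042 with a peak required in the 5 lists left when 1 was dropped. Calls stayed within 1.5 times of 2044 higher and 2436 lower except as follows. With no normalization they were 976 and 4051 (19.4% of the calls higher, against 45.6%), with the -log10 q-value as the height 6181 and 5898, and with 1 list left out 1404 to 1930 higher and 1498 to 2504 lower, the lower calls moving without any of the FANS lists. The median log2 difference was -0.0014 with centring, -0.16 with no normalization, 0.047 with the -log10 q-value (over all regions 0.064), -0.027 with GC correction, with or without the replicate block, and -0.014 to -0.020 with 1 list left out. As a percentile it was -0.55 points. The cause of these moves was not tested. With the replicate block alone 2103 were higher and 2509 lower. Of the 15 genes with most regions, 0 were among the 15 densest per 100 kb of the genes with at least 10 regions. The differences between techniques in the intronic median percentile of a list had 1 direction under every alternative run for them. So did those in its median height less that of promoter or intergenic regions. The 12 most changed regions also kept their direction, each still called in all 16 fits that included it. They were picked for large called differences in the same lists, so this was nearly given. Without read counts, depth cannot be separated from height.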
